A study of Mus musculus with 19 samples.

Results

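Heat shock chaperones are the 10 genes Hspa1a, Hspa1b, Hspa8, Hsph1, Dnajb1, Dnaja1, Hsp90aa1, Hsp90ab1, Hspd1 and Hspe1, taken by gene name from the 25639 genes of the CD8 and CD4 expression tables. All 10 were present in both tables. RNA sequencing measured them in T cells sorted from liver metastases of colorectal cancer in mice. Tumour cells of the Venus-AKTPM/LOH line had been injected into the spleen, and the metastases were taken at day 30. Vav1CreTet2KO mice carry a Cre recombinase driven by the Vav1 promoter, which is active across blood cells, together with a floxed Tet2 gene. Cd4CreTet2KO mice carry a Cre driven by the Cd4 promoter, which is active in developing T cells of both the CD4 and the CD8 lineage, with the same floxed gene. Tet2fl/fl mice carry the floxed gene and served as controls. The CD8 libraries comprised 3 Vav1CreTet2KO, 4 Cd4CreTet2KO and 3 Tet2fl/fl animals, and the CD4 libraries 3 animals of each genotype. The 19 libraries came from 11 animals, by the numbers in the library names, and 8 of these animals gave both cell types. The sources used here do not give the ages of the mice. The question was whether loss of Tet2, an enzyme that oxidises methylated cytosine, changed the transcripts of infiltrating T cells.

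Chaperones bind unfolded proteins and help them to fold. HSP70 proteins (Hspa1a, Hspa1b and Hspa8) cycle between tight and loose binding of their clients, driven by ATP, with J-domain proteins (Dnajb1, Dnaja1) that deliver clients and exchange factors (Hsph1) that release ADP. HSP90 proteins (Hsp90aa1, Hsp90ab1) act later on clients such as kinases and steroid receptors, and the HSP60 and HSP10 proteins (Hspd1, Hspe1) form the folding chamber of mitochondria. Heat and other protein stress induce Hspa1a, Hspa1b, Hsph1 and Dnajb1 strongly through the transcription factor HSF1, while Hspa8 and Hsp90ab1 are abundant without stress. Enzymatic digestion of tissue before sorting, as done here with collagenase A and DNase I, is also known to induce heat shock and immediate early genes.

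HSF1 binds inverted repeats of a 5-base unit with GAA at its core. RefSeq promoter windows of GRCm38.p6, each of 250 bases before and 50 bases from a transcript start, were found for 7 of the 10 chaperones, in 12 windows. The windows of Hspa1a and Hspa1b are shown because these genes differed most between genotypes, that of Hsph1 because it fell in CD8 cells of Cd4CreTet2KO mice, and that of Hspe1 as a contrast. Each sequence gives the 250 bases before the start, 5′ to 3′ on the strand of the gene, and capitals mark matches to the element.
Hspa1a, chr17:34972157-34972406, minus strand: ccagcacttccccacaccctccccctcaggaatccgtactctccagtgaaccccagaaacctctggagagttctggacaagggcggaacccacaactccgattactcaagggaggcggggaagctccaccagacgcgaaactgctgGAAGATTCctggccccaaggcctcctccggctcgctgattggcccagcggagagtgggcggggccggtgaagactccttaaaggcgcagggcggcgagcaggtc
Hspa1b, chr17:34959239-34959488, minus strand: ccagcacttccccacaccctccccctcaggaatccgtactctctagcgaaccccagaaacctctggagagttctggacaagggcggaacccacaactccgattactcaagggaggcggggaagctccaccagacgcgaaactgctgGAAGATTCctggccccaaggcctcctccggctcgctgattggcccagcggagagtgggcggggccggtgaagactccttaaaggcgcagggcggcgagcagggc
Hsph1, chr5:149636337-149636586, minus strand: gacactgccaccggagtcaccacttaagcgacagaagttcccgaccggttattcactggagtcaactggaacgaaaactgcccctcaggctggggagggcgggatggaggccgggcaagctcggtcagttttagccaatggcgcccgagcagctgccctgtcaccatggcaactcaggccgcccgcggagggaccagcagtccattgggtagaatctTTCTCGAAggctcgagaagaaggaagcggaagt
Hspe1, chr1:55087898-55088147, plus strand: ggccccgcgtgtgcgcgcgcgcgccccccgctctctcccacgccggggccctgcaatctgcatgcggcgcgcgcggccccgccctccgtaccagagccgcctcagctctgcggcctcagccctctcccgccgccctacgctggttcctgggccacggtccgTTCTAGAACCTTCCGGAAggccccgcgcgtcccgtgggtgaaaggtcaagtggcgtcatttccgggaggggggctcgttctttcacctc

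Matches were sought on both strands with 2 facing units (GAANNTTC or TTCNNGAA) and with 3 (GAANNTTCNNGAA or TTCNNGAANNTTC), so that every match with 3 units also holds matches with 2. Hspa1a and Hspa1b each held 1 match with 2 units, at bases -104 to -97 from the start. Hsph1 held 1 match with 2 units at -33 to -26 of its first window and 1 match with 3 units at 37 to 49, inside the transcript. Hspe1 held overlapping matches with 3 units at -89 to -72, and the same stretch lies at -144 to -127 of the second window of Hspd1, since these genes are transcribed away from each other. The first of 3 windows of Dnaja1 held 1 match with 2 units, and neither window of Dnajb1 held a match. Across all 32851 RefSeq windows, 0.603% held a match with 3 units and 15.1% a match with 2. These matches describe letters and not binding. The windows of Hspa1a and Hspa1b were identical at 296 of 300 bases, and the coding sequences at 99.5% of aligned positions. Each coding sequence was 74.7% or 74.9% identical to that of Hspa8, the constitutive HSP70.

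**Figure D1:**
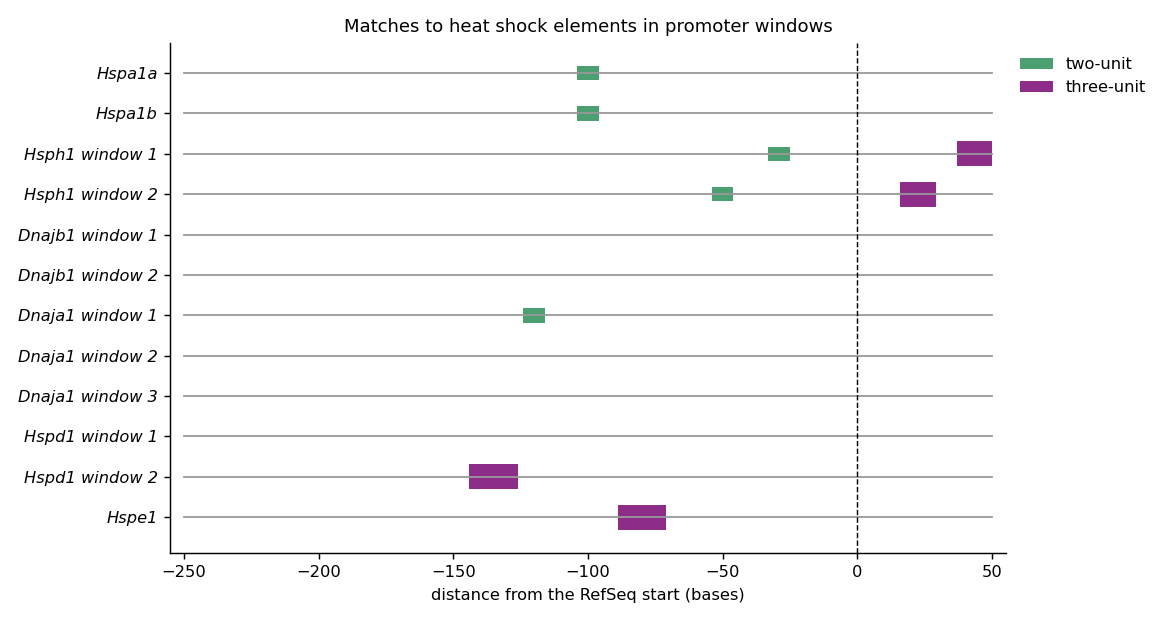
Each row is the promoter window of 1 transcript start, from 250 bases before to 50 bases after the start (dashed line), and bars mark matches to heat shock elements with 2 units (narrow, green) or 3 units (tall, purple). Hspa1a and Hspa1b hold a match at the same distance from the start, -104 to -97, and the windows of Hspd1 and Hspe1 share 1 stretch.

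CD8 reads were recovered from RPKM, because only RPKM were given for CD8 cells. Reads assigned to genes ranged from 8189300 to 20327809 in CD8 libraries and from 707866 to 17575534 in CD4 libraries. The shallowest by far was replicate 1 of the CD4 Vav1CreTet2KO libraries, with 707866 reads and 7761 genes above 0, against 13541 to 15628 genes in the other CD4 libraries. Replicate 1 of the CD8 Vav1CreTet2KO libraries also stood apart, with 11.0% of its reads on ribosomal protein genes against 4.51% to 7.99% in the other CD8 libraries. Odd numbers made up 50.6% of its recovered gene counts between 1 and 20, against 13.1% to 30.7% in the other 18 libraries. The recovery took the smallest step of each CD8 library as 1 read. The difference may therefore come from the recovery or from another way of counting, which was not tested. Both replicates came from the same animal, and the values that moved most without them are given below. Tet2 itself had 2.93 to 6.28 RPKM in CD8 Vav1CreTet2KO libraries, 3.01 to 7.57 in CD8 Cd4CreTet2KO libraries and 6.57 to 8.06 in CD8 Tet2fl/fl libraries, with no call in any comparison. In CD4 cells Tet2 had 2.77 to 5.65 RPKM in Vav1CreTet2KO libraries, 4.53 to 7.28 in Cd4CreTet2KO libraries and 3.87 to 7.02 in Tet2fl/fl libraries, and its edgeR log2 changes were -0.16 and 0.25 in the knockouts, so it was not lower in CD4 Cd4CreTet2KO cells. RPKM is a read count scaled to transcript length and library size. The sources used here do not name the deleted exons, so a value over the whole gene does not check the deletion. Cd4 lay between 39.5 and 122.4 RPKM in CD4 libraries. Cd8a had 103 to 169 RPKM in CD8 Vav1CreTet2KO libraries, 99.9 to 119 in Cd4CreTet2KO libraries and 179 to 229.8 in Tet2fl/fl libraries, without overlap between Tet2fl/fl and either knockout. Its limma log2 changes were -0.73 (adjusted p = 0.173) and -0.92 (adjusted p = 0.110) in Vav1CreTet2KO and Cd4CreTet2KO cells. Trac, the constant part of the T cell receptor alpha chain, likewise lay lower in CD8 knockout libraries, at 25.99 to 46.2, 28.1 to 34.6 and 49.3 to 62.1 RPKM in the same order of genotypes. Their part in the chaperone differences was not tested. In these bulk libraries, fewer cells of a type and less RNA per cell cannot be told apart.

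Hspa1a, Hspa1b and Dnajb1 lay lower in every knockout library than in any Tet2fl/fl library of the same cell type, the other chaperones less regularly, and Dnaja1 averaged higher in Vav1CreTet2KO cells. Few of the differences passed the test over all genes. Differences are called at a Benjamini-Hochberg adjusted p under 0.05, by limma on log2(RPKM + 1) for CD8 cells, whose table holds RPKM, and by edgeR's quasi-likelihood test for CD4 cells, whose table also holds counts. In CD8 cells of Vav1CreTet2KO mice, 2 of 10 chaperones fell (Hspa1a and Hspa1b), where 1.01% of the 10224 genes tested fell. In that comparison 4 of 10 had every Vav1CreTet2KO library below every Tet2fl/fl library, against 12.9% of all genes. In CD8 cells of Cd4CreTet2KO mice, 1 of 10 fell (Hsph1), where 0.489% of all genes fell, and 9 of 10 did not overlap, against 14.0% of all genes. In CD4 cells 0 of 10 were called in Vav1CreTet2KO mice, where 0.00738% of 13554 genes were called, and 5 of 10 lay below without overlap, against 12.5% of genes. At an unadjusted p under 0.05 these edgeR values included 7 of 10 chaperones, all lower, where 5.21% of genes were lower. DESeq2 called 1 chaperone, but it also called more of all genes than edgeR, with counts in the closing section. Without the shallow replicate 1 these CD4 counts were 5 of 10 at an unadjusted p under 0.05 by edgeR, against 5.0% of genes, and 6 of 10 without overlap, against 13.8%. In CD8 cells 6 of 10 lay below without overlap when replicate 1 was left out, against 18.4% of genes. In CD4 cells of Cd4CreTet2KO mice 0 of 10 were called, where 0.0295% of genes were called, and 5 of 10 lay below without overlap, against 7.93% of genes. There the unadjusted p was under 0.05 for 6 of 10 chaperones, all lower, where 0.738% of genes were lower. DESeq2 called 1 chaperone there, again with more calls over all genes than edgeR. The comparisons of the knockouts within a cell type share the Tet2fl/fl libraries, and the CD8 and CD4 tables were normalized separately, so levels are set side by side across cell types without a test.

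**Figure D2:**
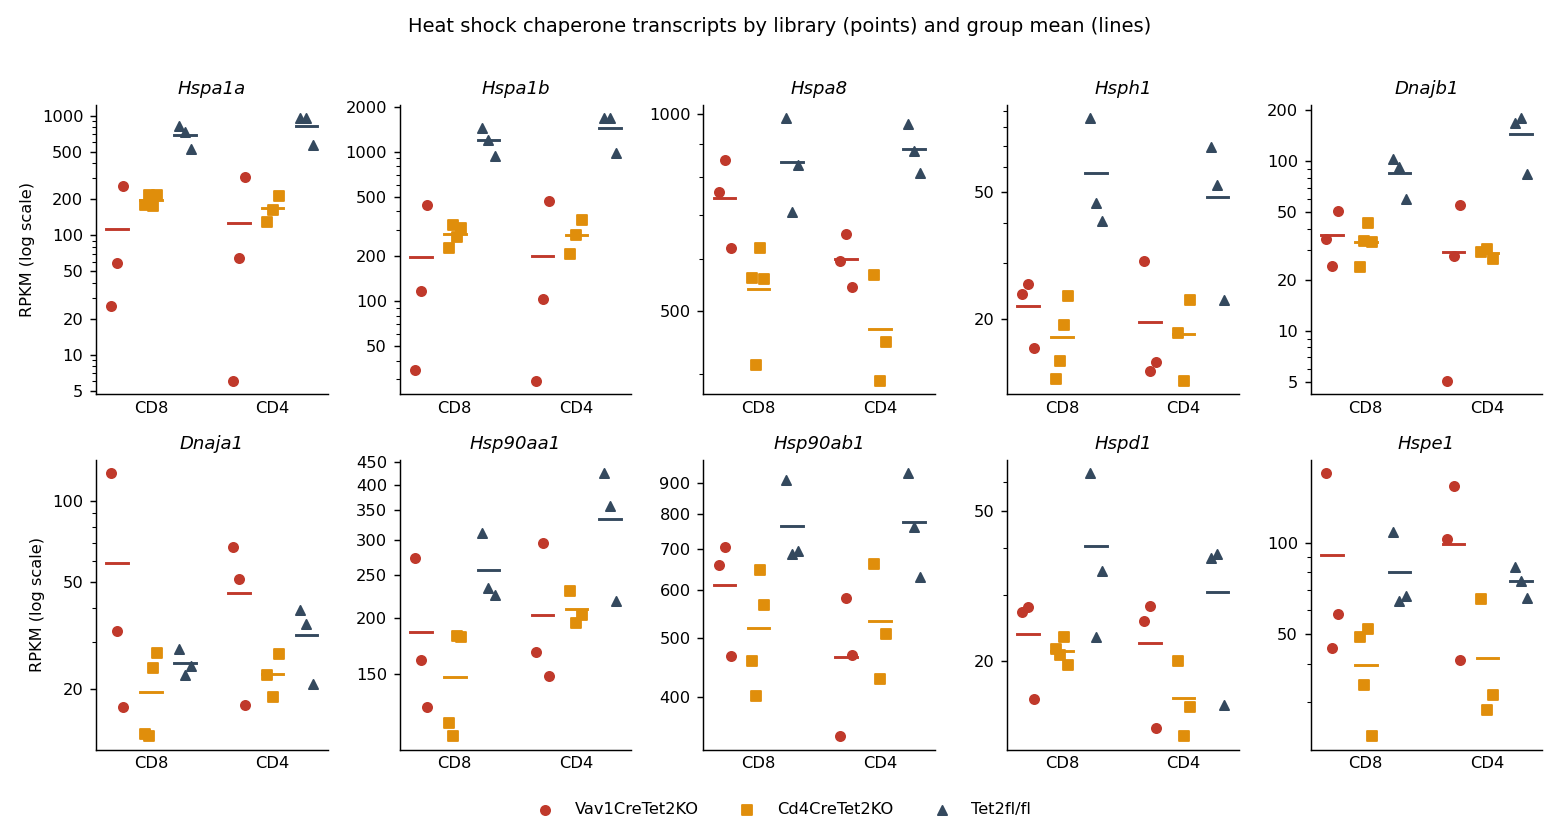
RPKM of each chaperone (log axis) in every library, with CD8 and CD4 cells side by side and Vav1CreTet2KO, Cd4CreTet2KO and Tet2fl/fl libraries as circles, squares and triangles; lines are group means. The Tet2fl/fl libraries of Hspa1a, Hspa1b and Dnajb1 lie above all knockout libraries in both cell types.

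Hspa1a and Hspa1b, the stress-inducible HSP70 genes, showed the widest gaps. In CD8 cells Hspa1a had 25.8, 58.6 and 256 RPKM in Vav1CreTet2KO libraries, 180, 217, 177 and 217 RPKM in Cd4CreTet2KO libraries, and 822, 724 and 525 RPKM in Tet2fl/fl libraries. The 7 knockout libraries all lay below the 3 Tet2fl/fl libraries. On a log scale the Vav1CreTet2KO libraries spanned a far wider range than the others, though not in RPKM. The means were 113 ± 125 RPKM in Vav1CreTet2KO cells (SD, n = 3), 198 ± 22.3 in Cd4CreTet2KO cells (n = 4) and 690.5 ± 151 in Tet2fl/fl cells (n = 3). By limma Hspa1a fell 9.15-fold in Vav1CreTet2KO cells, a log2 change of -3.19 (SE 0.59, adjusted p = 0.0218). In Cd4CreTet2KO cells the log2 change was -1.78 (SE 0.56), which did not pass (limma, adjusted p = 0.176). Hspa1b averaged 196 ± 213 RPKM in CD8 Vav1CreTet2KO cells, 282 ± 42.3 in Cd4CreTet2KO cells and 1189 ± 252 in Tet2fl/fl cells, again with no overlap between either knockout and Tet2fl/fl. It fell 9.56-fold in Vav1CreTet2KO cells by limma (log2 change -3.26, SE 0.65, adjusted p = 0.0288), against a log2 change of -2.06 (SE 0.61, adjusted p = 0.153) in Cd4CreTet2KO cells. On reads recovered from RPKM, edgeR called neither in CD8 Vav1CreTet2KO cells, at log2 changes of -2.34 (adjusted p = 0.161) and -2.33 (adjusted p = 0.175). The calls were also lost without any single Tet2fl/fl library or without Vav1CreTet2KO replicate 2, and kept without replicate 1, where Hspa1a had a log2 change of -2.46 (limma, adjusted p = 0.0417) and Hspa1b of -2.37 (limma, adjusted p = 0.0388), and without replicate 3, at -4.09 and -4.18.

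In CD4 cells Hspa1a had 6.02, 63.8 and 309 RPKM in Vav1CreTet2KO libraries, 128, 163 and 213 RPKM in Cd4CreTet2KO libraries, and 958, 948 and 573 RPKM in Tet2fl/fl libraries. As in CD8 cells, the Tet2fl/fl libraries stood above all knockout libraries, and the Vav1CreTet2KO libraries varied most on a log scale. The log2 change by edgeR was -2.52 (SE 1.08, adjusted p = 0.415) in Vav1CreTet2KO cells. In Cd4CreTet2KO cells it was -2.18 (SE 1.07), at an unadjusted p = 0.0749 by edgeR. Hspa1b averaged 199 ± 233 RPKM in Vav1CreTet2KO cells, 276 ± 71.0 in Cd4CreTet2KO cells and 1445 ± 407 in Tet2fl/fl cells (SD, n = 3 each). Its edgeR log2 changes were -2.67 (SE 0.80, adjusted p = 0.256) and -2.26 (SE 0.79) for Vav1CreTet2KO and Cd4CreTet2KO cells, and neither passed. Without Vav1CreTet2KO replicate 3, edgeR called Hspa1a (log2 change -4.53, adjusted p = 0.00857) and Hspa1b (-4.41, adjusted p = 0.00156) in CD4 Vav1CreTet2KO cells. Without the shallow replicate 1 the values were -1.96 and -2.16, with adjusted p = 0.293 and 0.237 by edgeR. The authors' counting could divide reads between the near-identical copies, so the split between them is uncertain. The ratio of Hspa1b to Hspa1a RPKM was 1.26 to 1.99 in 18 libraries and 4.84 in the shallow CD4 Vav1CreTet2KO replicate, which held 33 reads of Hspa1a and 151 of Hspa1b.

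Among the partners of HSP70, Hsph1, the exchange factor HSP110, had 24.0, 25.7 and 16.2 RPKM in CD8 Vav1CreTet2KO libraries, 13.0, 14.8, 19.2 and 23.6 in Cd4CreTet2KO libraries, and 85.5, 46.2 and 40.5 in Tet2fl/fl libraries. All knockout libraries lay below all Tet2fl/fl libraries. It fell 3.04-fold in Cd4CreTet2KO cells by limma (log2 change -1.60, SE 0.30, adjusted p = 0.0441), and its log2 change of -1.29 (SE 0.33, adjusted p = 0.0695) in Vav1CreTet2KO cells did not pass. The call in Cd4CreTet2KO cells was lost without the 2 Cd4CreTet2KO libraries that held the most macrophage transcripts (limma, log2 change -1.31, adjusted p = 0.344), and leaving out any 1 library kept it only for Cd4CreTet2KO replicate 4. In CD4 cells Hsph1 had 30.5, 13.8 and 14.7 RPKM in Vav1CreTet2KO libraries, 18.1, 12.8 and 23.0 in Cd4CreTet2KO libraries, and 69.5, 52.6 and 23.0 in Tet2fl/fl libraries. The third Tet2fl/fl library lay at the level of the knockouts, so the groups overlapped, and edgeR log2 changes were -1.16 (SE 0.42) for Vav1CreTet2KO and -1.31 (SE 0.42) for Cd4CreTet2KO cells, without a call.

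Dnajb1, the HSP40 protein that delivers clients to inducible HSP70, had 34.8, 24.2 and 51.0 RPKM in CD8 Vav1CreTet2KO libraries, 23.9, 34.0, 43.1 and 33.6 in Cd4CreTet2KO libraries, and 103, 93.2 and 60.1 in Tet2fl/fl libraries. In CD4 cells it had 5.07, 27.6 and 55.3 RPKM in Vav1CreTet2KO libraries, 29.3, 30.3 and 26.7 in Cd4CreTet2KO libraries, and 168, 181 and 84.5 in Tet2fl/fl libraries. No knockout library reached a Tet2fl/fl library in either cell type. The limma log2 changes in CD8 cells were -1.22 (SE 0.32, adjusted p = 0.0818) for Vav1CreTet2KO and -1.31 (SE 0.30, adjusted p = 0.0794) for Cd4CreTet2KO cells. The edgeR log2 changes in CD4 cells were -2.13 (SE 0.57, adjusted p = 0.180) for Vav1CreTet2KO and -2.22 (SE 0.57) for Cd4CreTet2KO cells, whose unadjusted p was 0.0017. Without the shallow replicate 1, which had the 5.07 RPKM, the CD4 Vav1CreTet2KO value was -1.65 (edgeR, adjusted p = 0.0921). DESeq2 called Dnajb1 in CD4 Vav1CreTet2KO cells, at adjusted p = 0.0372.

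Dnaja1, a J-domain protein of the cytosol with a broader range of clients, did not follow Dnajb1. In CD8 cells it had 127, 32.8 and 17.2 RPKM in Vav1CreTet2KO libraries, 13.6, 13.3, 24.0 and 27.1 in Cd4CreTet2KO libraries, and 28.1, 22.5 and 24.4 in Tet2fl/fl libraries. In CD4 cells it had 67.5, 51.4 and 17.4 RPKM in Vav1CreTet2KO libraries, 22.6, 18.7 and 27.0 in Cd4CreTet2KO libraries, and 39.2, 34.8 and 20.8 in Tet2fl/fl libraries. The Vav1CreTet2KO libraries ranged on both sides of the Tet2fl/fl libraries in both cell types, with replicate 1 highest and replicate 3 lowest. Its log2 changes in Vav1CreTet2KO cells were 0.73 (limma, SE 0.55) in CD8 cells and 0.63 (edgeR, SE 0.39) in CD4 cells, and without replicate 1 they were -0.0624 and 0.17. Neither passed the test.

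Hspa8, the constitutive HSP70, had 759, 851 and 623 RPKM in CD8 Vav1CreTet2KO libraries, 562, 413, 623 and 560 in Cd4CreTet2KO libraries, and 986, 708 and 835 in Tet2fl/fl libraries. Its RPKM, a level per length, was the highest of the 10 chaperones in all 6 Vav1CreTet2KO libraries, while Hsp90ab1 was higher in 5 of 7 Cd4CreTet2KO libraries. In CD4 cells Hspa8 had 596, 656 and 545 RPKM in Vav1CreTet2KO libraries, 567, 390 and 447 in Cd4CreTet2KO libraries, and 966, 877 and 812 in Tet2fl/fl libraries. The CD4 knockout libraries lay below the Tet2fl/fl libraries without overlap, while the CD8 Vav1CreTet2KO libraries overlapped them. The limma log2 changes in CD8 cells were -0.18 (SE 0.29) for Vav1CreTet2KO and -0.65 (SE 0.27, adjusted p = 0.356) for Cd4CreTet2KO cells. By edgeR, the CD4 values were -0.45 (SE 0.19, adjusted p = 0.370) for Vav1CreTet2KO and -0.83 (SE 0.19, adjusted p = 0.991) for Cd4CreTet2KO cells. That 0.991 was the lowest adjusted p of any chaperone in CD4 Cd4CreTet2KO cells. DESeq2 called Hspa8 in CD4 Cd4CreTet2KO cells, at adjusted p = 0.0194.

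The HSP90 genes differed less. Hsp90aa1, the inducible form, ranged from 126 to 273 RPKM in CD8 Vav1CreTet2KO libraries, from 108 to 183 in Cd4CreTet2KO libraries and from 226 to 311 in Tet2fl/fl libraries. Hsp90ab1, the constitutive form, ranged from 467 to 704 RPKM in CD8 Vav1CreTet2KO libraries, from 402 to 645 in Cd4CreTet2KO libraries and from 688 to 909 in Tet2fl/fl libraries. For both genes the Cd4CreTet2KO libraries lay below the Tet2fl/fl libraries without overlap and the Vav1CreTet2KO libraries overlapped them. In CD4 cells Hsp90aa1 ranged from 148 to 296 RPKM in Vav1CreTet2KO libraries, from 195 to 230.1 in Cd4CreTet2KO libraries and from 219 to 424 in Tet2fl/fl libraries, and Hsp90ab1 from 344 to 581, from 428 to 661 and from 631 to 932 RPKM in the same order of genotypes. Across the 2 genes, 2 cell types and 2 knockouts the log2 changes lay between -0.83 and -0.33, and none was called by limma or edgeR.

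Hspd1, the mitochondrial HSP60, and its lid Hspe1, the HSP10, overlap by 112 bases on opposite strands in the tables, and the sources used here do not say whether the counting used strand, so reads in the overlap cannot be assigned to 1 gene. Hspd1 ranged from 15.9 to 27.8 RPKM in CD8 Vav1CreTet2KO libraries, from 19.5 to 23.2 in Cd4CreTet2KO libraries and from 23.2 to 63.2 in Tet2fl/fl libraries. Hspe1 had 169, 45.1 and 58.2 RPKM in CD8 Vav1CreTet2KO libraries, 48.8, 34.1, 52.2 and 23.1 in Cd4CreTet2KO libraries, and 109, 64.3 and 66.9 in Tet2fl/fl libraries. In CD4 cells Hspe1 had 103, 153 and 41.1 RPKM in Vav1CreTet2KO libraries, 65.3, 28.2 and 31.5 in Cd4CreTet2KO libraries, and 83.5, 75.0 and 66.0 in Tet2fl/fl libraries. Hspe1 thus lay below Tet2fl/fl without overlap in Cd4CreTet2KO cells of both types, and on both sides of it in Vav1CreTet2KO cells. Its log2 changes in Cd4CreTet2KO cells were -1.02 (limma, SE 0.43) in CD8 cells and -0.78 (edgeR, SE 0.42) in CD4 cells, against -0.02 and 0.48 in Vav1CreTet2KO cells, with no call and with 0.0721 for the first after division of RPKM by size factors. Without replicate 1 the CD8 Vav1CreTet2KO value was -0.59 (limma, adjusted p = 0.484).

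**Figure D3:**
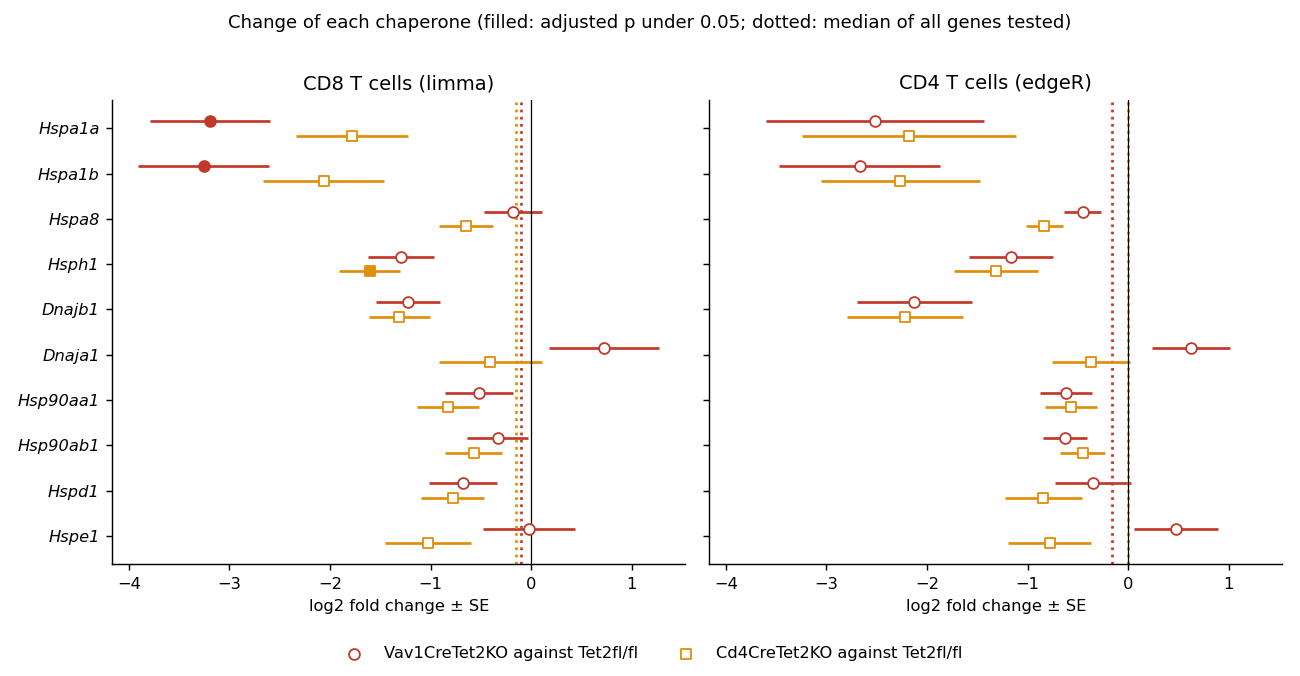
Log2 fold change of each chaperone with its SE, for Vav1CreTet2KO (circles) and Cd4CreTet2KO (squares) against Tet2fl/fl, in CD8 cells (limma on log2(RPKM + 1)) and CD4 cells (edgeR); filled symbols passed an adjusted p of 0.05 and dotted lines are the medians of all genes tested. Hspa1a and Hspa1b lie between -3.26 and -1.78, while Dnaja1 and Hspe1 lie at or above -0.02 in Vav1CreTet2KO cells.

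The median log2 change of the 10 chaperones was -0.60 in CD8 Vav1CreTet2KO cells, against -0.11 over all genes tested, and 9 of 10 were below 0, against 58.4% of genes. In CD8 Cd4CreTet2KO cells the median was -0.92 against -0.15, and 10 of 10 were below 0, against 66.6% of genes. In CD4 cells the medians were -0.62 against -0.16 with 8 of 10 below 0 in Vav1CreTet2KO cells, and -0.84 against 0.00 with 10 of 10 below 0 in Cd4CreTet2KO cells, where 56.4% and 49.7% of genes were below 0. Between the knockouts themselves limma called 0 chaperones and 0 of all genes in CD8 cells, and edgeR called 0 chaperones and 0.0664% of all genes in CD4 cells. At an unadjusted p under 0.05 the counts were 3 and 2 chaperones, where 6.35% and 10.7% of genes reached it, and DESeq2 called 0 chaperones in either cell type. In CD8 cells these were Hspa1a (limma log2 change -1.41, SE 0.56), Dnaja1 (1.13, SE 0.51) and Hspe1 (1.00, SE 0.43), and in CD4 cells Dnaja1 (edgeR, 0.99, SE 0.39) and Hspe1 (1.26, SE 0.42). For 0 of 10 chaperones did the knockout groups lie apart in either direction, against 4.53% of genes in CD8 cells and 19.5% in CD4 cells.

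The authors' deposited table, whose test the sources used here do not describe, gave false discovery rates under 0.05 for more chaperones. The share of all genes under 0.05 in it was not counted, so these counts cannot be set against that share. It listed 3 in CD8 Vav1CreTet2KO cells, with Hspa1a at 0.00077, Hspa1b at 0.00131 and Hsph1 at 0.00637, and 2 in CD8 Cd4CreTet2KO cells, with Hspa1b at 0.0163 and Hsph1 at 0.000388. For CD4 cells the authors' deposited table listed 3 in Vav1CreTet2KO cells, Dnajb1 at 0.00366, Hspa1a at 0.0154 and Hspa1b at 0.000511, and 2 in Cd4CreTet2KO cells, Dnajb1 at 0.0103 and Hspa1b at 0.0496.

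As a share of reads on genes, the 10 chaperones took 1.14% to 1.57% in CD8 Vav1CreTet2KO libraries, 1.07% to 1.43% in Cd4CreTet2KO libraries and 2.11% to 2.83% in Tet2fl/fl libraries. In CD4 cells the shares were 1.01% to 1.49%, 1.16% to 1.33% and 2.25% to 3.30% in Vav1CreTet2KO, Cd4CreTet2KO and Tet2fl/fl libraries. Hspa1a and Hspa1b alone took 0.0326%, 0.103% and 0.546% in CD8 Vav1CreTet2KO libraries, 0.276% to 0.449% in Cd4CreTet2KO libraries and 0.913% to 1.35% in Tet2fl/fl libraries. The other 8 chaperones took 1.02% to 1.10%, 0.797% to 1.11% and 1.20% to 1.49% in CD8 libraries of the same 3 genotypes, so by this share they also lay below Tet2fl/fl without overlap but by less. In summed RPKM the other 8 overlapped, at 1374 to 2073 in CD8 Vav1CreTet2KO libraries against 1879 to 2594 in Tet2fl/fl libraries. In CD4 cells Hspa1a and Hspa1b took 0.0260%, 0.0934% and 0.570% in Vav1CreTet2KO libraries, 0.209% to 0.406% in Cd4CreTet2KO libraries and 1.04% to 1.66% in Tet2fl/fl libraries.

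**Figure D4:**
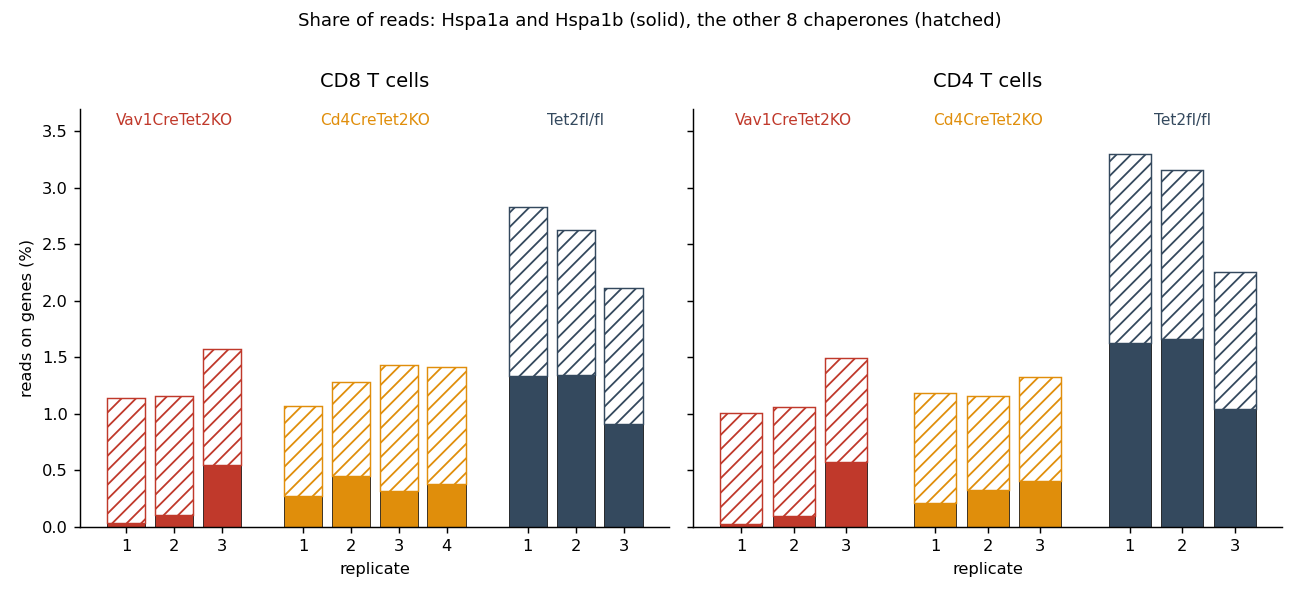
Stacked bars give the share of reads on genes in each library, for Hspa1a and Hspa1b (solid) and the other 8 chaperones (hatched), with genotypes from left to right Vav1CreTet2KO, Cd4CreTet2KO and Tet2fl/fl. All 10 together reach 2.11% to 3.30% in Tet2fl/fl libraries and at most 1.57% in knockout libraries.

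The summed level of Hspa1a and Hspa1b ranked the animals of a genotype alike in CD8 and CD4 cells. The summed RPKM of Hspa1a and Hspa1b in CD8 and CD4 cells of 1 animal were 60.4 and 35.2, 175 and 168, and 693 and 773 in the 3 Vav1CreTet2KO animals. They were 446 and 334, and 525 and 561, in the 2 Cd4CreTet2KO animals that gave both cell types, and 2256 and 2635, 1926 and 2631, and 1455 and 1549 in the 3 Tet2fl/fl animals. Of the 3 Tet2fl/fl animals, the first 2 lay close together in CD4 cells. Hspa1b alone ranked them differently, at 1434 and 1202 RPKM in CD8 cells and 1678 and 1683 RPKM in CD4 cells. For the sum of the pair, the order of animals was the same in both cell types in 3 of 3 genotypes. For the sum of the other 8 chaperones it was the same in 1 of 3 genotypes, for Dnaja1 in 2 of 3 and for Jun in 3 of 3. The share of all genes that keep the order was not counted, so this order may not be particular to the chaperones. Both libraries of an animal share its tumours and their digestion.

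Across the 6 groups, mean Hspa1a RPKM was highest in CD4 Tet2fl/fl cells (826 ± 219), followed by CD8 Tet2fl/fl (690.5 ± 151), CD8 Cd4CreTet2KO (198 ± 22.3), CD4 Cd4CreTet2KO (168 ± 42.5), CD4 Vav1CreTet2KO (126 ± 161) and CD8 Vav1CreTet2KO cells (113 ± 125). The CD4 and CD8 Tet2fl/fl groups overlapped each other, as did each pair of neighbours among the knockouts, and only the step between the CD8 Tet2fl/fl and CD8 Cd4CreTet2KO groups had no overlap. Hspa1b had the same order and the same single gap.

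Partners and regulators outside the 10 chaperones moved only in part. Of 27 co-chaperones tested in CD8 cells, 2 fell in Vav1CreTet2KO cells, where 1.01% of all genes fell. Of the 27, 13 were below 0, against 58.4% of genes, with a median log2 change of 0.01. Bag3, an HSP70 exchange factor induced by heat, had 3.26, 7.39 and 2.78 RPKM in Vav1CreTet2KO libraries, 4.99, 4.77, 4.07 and 6.06 in Cd4CreTet2KO libraries, and 51.2, 27.9 and 16.7 in Tet2fl/fl libraries. It fell in both CD8 knockouts, by limma log2 changes of -2.54 (SE 0.40, adjusted p = 0.0113) and -2.33 (SE 0.37, adjusted p = 0.0266) for Vav1CreTet2KO and Cd4CreTet2KO cells. Fkbp5, an HSP90 partner that glucocorticoids induce, was the other one, with limma log2 changes of -1.44 (SE 0.27, adjusted p = 0.0234) and -1.37 (SE 0.25, adjusted p = 0.0391) for the same knockouts. The 2 were also the only co-chaperones that fell in CD8 Cd4CreTet2KO cells, where 0.489% of all genes fell. There 22 of 27 were below 0, against 66.6% of genes, with a median of -0.21. In CD4 cells edgeR called 0 of 27 co-chaperones in either knockout, with Bag3 at -1.53 (SE 0.46, adjusted p = 0.228) in Vav1CreTet2KO cells and -1.30 (SE 0.45, unadjusted p = 0.0116) in Cd4CreTet2KO cells.

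Of 8 other heat-inducible genes tested in CD8 cells, 1 fell in Vav1CreTet2KO cells, where 1.01% of all genes fell. It was the small heat shock protein Hspb1, at 0, 0 and 0.08 RPKM in Vav1CreTet2KO libraries, 1.79, 0.72, 1.14 and 0.29 in Cd4CreTet2KO libraries, and 6.41, 8.34 and 0.99 in Tet2fl/fl libraries (limma log2 change -2.33, SE 0.51, adjusted p = 0.0420). None of these 8 was called in CD8 Cd4CreTet2KO cells, and none of 10 tested in CD4 cells by edgeR, where Hspb1 was at 0 in all 3 Vav1CreTet2KO libraries. Hsf1, which encodes the heat shock factor itself, had log2 changes of -0.04 (limma, SE 0.27) and 0.13 (limma, SE 0.25) in CD8 Vav1CreTet2KO and Cd4CreTet2KO cells, with no call among 6 heat shock factors and regulators. Chaperones of the endoplasmic reticulum had a median log2 change of 0.24 over 18 genes in CD8 Vav1CreTet2KO cells and 0.36 in CD4 Vav1CreTet2KO cells, with no call. Of the 18, 15 and 13 were above 0, where 4249 of 10224 and 5905 of 13554 genes were. The 8 subunits of TRiC, the chaperonin of the cytosol, had medians of -0.07 and -0.28 in CD8 Vav1CreTet2KO and Cd4CreTet2KO cells, and 8 other mitochondrial chaperones and proteases had -0.16 and -0.34, with no call in either list. In CD8 Vav1CreTet2KO cells the smallest unadjusted p belonged to Hsf2 among the heat shock factors, Herpud1 among the endoplasmic reticulum genes, Cct6a in TRiC and Dnaja3 in the mitochondrial list, and in CD8 Cd4CreTet2KO cells to Hsf2, Hspa5, Cct7 and Clpp. In CD4 cells the medians were 0.01 and -0.07 for TRiC and -0.28 and 0.22 for the mitochondrial list, for Vav1CreTet2KO and Cd4CreTet2KO cells. No list of chaperone genes held a call in CD4 cells, and the smallest unadjusted p belonged to Hsbp1, Manf, Cct2 and Dnaja3 in Vav1CreTet2KO cells and to Hsf1, P4hb, Cct2 and Clpp in Cd4CreTet2KO cells.

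Immediate early genes known to rise on tissue dissociation were tested as a list of 17. Limma and edgeR called none of them in either cell type. At an unadjusted p under 0.05 were 4 of 17 in CD8 Vav1CreTet2KO cells and 2 of 17 in CD8 Cd4CreTet2KO cells by limma, where 17.3% and 12.4% of all genes were. By edgeR the counts were 10 of 17 in CD4 Vav1CreTet2KO cells and 3 of 17 in CD4 Cd4CreTet2KO cells, where 11.9% and 2.5% of all genes were. Below Tet2fl/fl without overlap lay 3 and 2 of 17 in CD8 cells, against 12.9% and 14.0% of all genes, in the same order of knockouts. In CD4 cells these were 10 and 8 of 17, against 12.5% and 7.93% of genes. Above Tet2fl/fl without overlap lay 3 and 0 of 17 in CD8 cells, against 708 and 394 of 10224 genes. In CD4 cells 1 and 0 of 17 lay above, against 432 and 790 of 13554 genes. Their median log2 change was 0.16 and -0.32 in CD8 Vav1CreTet2KO and Cd4CreTet2KO cells, and -0.72 and -0.32 in CD4 Vav1CreTet2KO and Cd4CreTet2KO cells. Below 0 were 8 and 15 of 17 in CD8 cells, where 58.4% and 66.6% of all genes were, in the same order of knockouts. In CD4 cells 14 and 13 of 17 were below 0, where 56.4% and 49.7% of all genes were. Jun had 92.2, 129 and 207 RPKM in CD8 Vav1CreTet2KO libraries, 174, 183, 189 and 214 in Cd4CreTet2KO libraries, and 342, 370.1 and 291 in Tet2fl/fl libraries, without overlap between Tet2fl/fl and either knockout (limma, adjusted p = 0.0539 and 0.227 for Vav1CreTet2KO and Cd4CreTet2KO cells). The part of dissociation in the chaperone differences was not tested.

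Transcripts of other cell types also differed between the CD8 groups. The 5 dendritic cell markers (Flt3, Clec9a, Xcr1, Itgax and H2-Ab1) summed to 324 to 1302 RPKM in CD8 Vav1CreTet2KO libraries, 119 to 920 in Cd4CreTet2KO libraries and 15.9 to 131 in Tet2fl/fl libraries, with none at 0 throughout a group. In CD8 Vav1CreTet2KO cells 3 of 5 rose (Flt3, Clec9a and H2-Ab1), where 46 of the 10224 genes tested rose. In CD4 cells the 5 markers summed to 101 to 322, 19.1 to 58.1 and 23.6 to 50.5 RPKM in Vav1CreTet2KO, Cd4CreTet2KO and Tet2fl/fl libraries, and 0 of 5 were called by edgeR. The 6 macrophage markers summed to 13.3 to 47.4 RPKM in CD8 Vav1CreTet2KO libraries, 4.97 to 239 in Cd4CreTet2KO libraries and 7.69 to 17.0 in Tet2fl/fl libraries, and 0 of 6 were called. The macrophage markers in CD4 cells summed to 26.3 to 54.8, 2.62 to 11.8 and 0.87 to 52.8 RPKM in Vav1CreTet2KO, Cd4CreTet2KO and Tet2fl/fl libraries. Both plasmacytoid dendritic cell markers (Siglech and Bst2) summed to 36.4 to 151 RPKM in CD8 Vav1CreTet2KO libraries, 17.4 to 95.0 in Cd4CreTet2KO libraries and 6.73 to 15.5 in Tet2fl/fl libraries, with no call. Neutrophil markers reached 73.1 and 40.4 RPKM in replicates 1 and 2 of the CD8 Cd4CreTet2KO libraries, and at most 5.38 RPKM in any other library. Cd40lg, a ligand of helper T cells listed as a CD4 T cell marker, had 12.5, 10.9 and 7.82 RPKM in CD8 Vav1CreTet2KO libraries, 0.65, 2.34, 0.91 and 3.30 in Cd4CreTet2KO libraries, and 0.0945, 1.35 and 0 in Tet2fl/fl libraries. It rose in CD8 Vav1CreTet2KO cells (limma log2 change 3.04, SE 0.43, adjusted p = 0.0098). Cd4, the other gene of that list, was not called in either CD8 knockout. It had 0.0955, 1.59 and 0.67 RPKM in CD8 Vav1CreTet2KO libraries, 7.68, 2.27, 0 and 0.0158 in Cd4CreTet2KO libraries, and 0 in all Tet2fl/fl libraries. Markers of B cells, hepatocytes and cancer epithelium summed to at most 8.40, 12.3 and 25.2 RPKM in any library. The part of other cell types in the chaperone differences was not tested.

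Tox, a transcription factor of T cell exhaustion, and Pdcd1, which encodes the inhibitory receptor PD-1, also lay lower in every CD8 knockout library than in any Tet2fl/fl library. Tox had 2.60, 10.2 and 6.86 RPKM in CD8 Vav1CreTet2KO libraries, 8.52, 5.36, 5.70 and 6.61 in Cd4CreTet2KO libraries, and 44.5, 25.1 and 33.7 in Tet2fl/fl libraries. It fell in both CD8 knockouts by limma, with log2 changes of -2.34 (SE 0.38, adjusted p = 0.0121) and -2.21 (SE 0.36, adjusted p = 0.0266) for Vav1CreTet2KO and Cd4CreTet2KO cells. Pdcd1 had 27.5, 61.6 and 13.3 RPKM in CD8 Vav1CreTet2KO libraries, 27.8, 9.08, 13.4 and 38.4 in Cd4CreTet2KO libraries, and 127, 91.5 and 105 in Tet2fl/fl libraries (limma, adjusted p = 0.107 and 0.0607 for Vav1CreTet2KO and Cd4CreTet2KO cells). In CD4 cells neither gene was called by edgeR, with Tox at -0.30 and -0.11 and Pdcd1 at -1.33 and 0.39 on the log2 scale for Vav1CreTet2KO and Cd4CreTet2KO cells. Since Hspa1a, Hspa1b and Tox all lay lower in CD8 knockout libraries, the relation was examined within genotypes, on deviations of log2(RPKM + 1) from the mean of the genotype.

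Within genotypes, no relation of a chaperone to Tox or Pdcd1 passed the adjusted test. Of 40 relations (10 chaperones, 2 genes, 2 cell types), an exact permutation test within genotypes gave 0 with an adjusted p under 0.05 and 1 with an unadjusted p under 0.05. The 864 arrangements of the 10 CD8 libraries and 216 of the 9 CD4 libraries allow a p as small as 0.00116 and 0.00463, so that 1 relation alone could reach an adjusted p of 0.0463 in CD8 cells and 0.185 in CD4 cells. In CD8 cells Hspa1a had Pearson's r = 0.45 with Tox (two-sided exact permutation p = 0.602; Spearman's rho 0.32, exact permutation p = 0.524), and r = 0.48 without the 2 libraries farthest from the median of Tox. With Pdcd1 it had r = -0.39 (exact permutation p = 0.571; rho -0.25, exact permutation p = 0.650). In CD4 cells Hspa1a had r = -0.45 with Tox (exact permutation p = 0.384; rho -0.48, p = 0.255) and r = -0.15 with Pdcd1 (exact permutation p = 0.954; rho -0.28, p = 0.597). The sign of r with Tox differed between the cell types, that with Pdcd1 was negative in both, and the adjusted p of r was 0.909 or more for all 40. These signs were not stable. With 1 library left out, r of Hspa1a in CD8 cells ran from -0.40 to 0.73 with Tox and from -0.63 to 0.41 with Pdcd1. In CD4 cells r of Hspa1a ran from -0.65 to -0.03 with Tox and from -0.48 to 0.50 with Pdcd1, so only the former kept its sign. The 1 relation with an unadjusted p under 0.05 was that of Hspa8 and Pdcd1 in CD8 cells, with r = 0.68 (exact permutation p = 0.0498, adjusted p = 0.909; rho 0.60, exact permutation p = 0.0949), and r = 0.53 without the 2 farthest libraries. After division of RPKM by size factors, r of this pair was 0.16 (exact permutation p = 0.749).

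Library by library, the CD8 Vav1CreTet2KO replicate with the most Hspa1a and Hspa1b (693 RPKM together) had 6.86 RPKM of Tox and the lowest Pdcd1 of its group, 13.3 RPKM. The replicate with the most Tox and Pdcd1 (10.2 and 61.6 RPKM) had 175 RPKM of the HSP70 pair. Among CD8 Tet2fl/fl libraries, replicate 1 had the highest level of the pair, of Tox and of Pdcd1, while replicate 2 exceeded replicate 3 for the pair and lay below it for Tox and Pdcd1. The CD4 Vav1CreTet2KO replicate with the most of the HSP70 pair (773 RPKM) had the lowest Tox (9.27 RPKM) and the lowest Pdcd1 (10.5 RPKM) of its group.

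**Figure D5:**
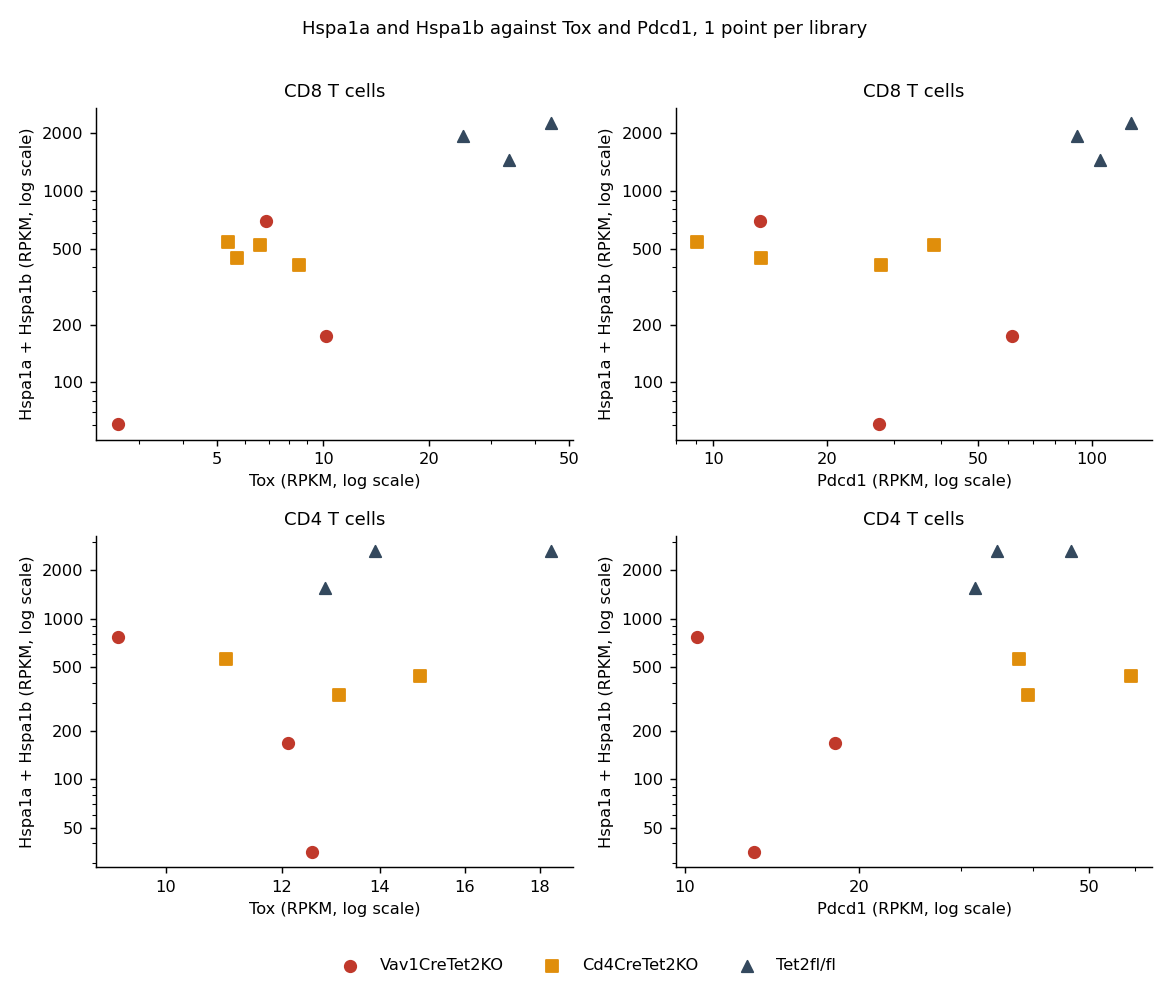
Summed RPKM of Hspa1a and Hspa1b against Tox (left) and Pdcd1 (right) in CD8 (top) and CD4 cells (bottom), 1 point per library, log axes. In CD8 cells the Tet2fl/fl libraries lie apart at 25.1 to 44.5 RPKM of Tox, while within a genotype the HSP70 pair shows no common direction with either gene.

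Of 9484 genes with values in both tables, the 5 whose profile over libraries was most like the mean log2(RPKM + 1) of the 10 chaperones, by the lower of Pearson's r over 10 CD8 and over 9 CD4 libraries, were Lime1 (r = 0.91 and 0.87), Cast (0.91 and 0.83), Vipr2 (0.86 and 0.82), Gpm6b (0.82 and 0.83) and Spock2 (0.87 and 0.82). On the same measure Jun had 0.75 and 0.84, Tox 0.86 and 0.48, and Pdcd1 0.77 and 0.38. Fos had 0.39 and 0.82, and the T cell marker Cd3e had 0.89 and 0.28, so that in CD8 cells Cd3e lay above Tox and Pdcd1. These r describe the libraries, which fall into genotypes, and carry no test. Lime1, an adaptor of lymphocyte signalling, had 9.51 to 12.3 RPKM in CD8 Vav1CreTet2KO libraries, 9.94 to 12.5 in Cd4CreTet2KO libraries and 19.2 to 25.4 in Tet2fl/fl libraries.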

How the data were processed

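RNA of sorted CD8 and CD4 T cells was sequenced from SMARTer Stranded Total RNA Pico libraries, per the labels' protocols. The CD8 table deposited by the authors holds RPKM, and the CD4 table deposited by the authors holds counts and RPKM per gene, with their own log2 fold changes and false discovery rate p-values; the sources used here do not say how these were made. The submitters' processing notes name the builds GRCm38 and mm10, but gene positions in the tables differ from RefSeq GRCm38, so only RefSeq positions are printed. Of the per-sample columns, the 28 named for these libraries entered the work and 18 were left aside.

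CD8 RPKM were tested with limma 3.58.1 (mean-variance trend) on log2(RPKM + 1), on genes that reached 1 RPKM in 3 or more libraries. CD4 counts were tested with edgeR 4.0.16 (robust quasi-likelihood, TMM, filterByExpr at 10 counts), all libraries of a cell type in 1 fit, with Benjamini-Hochberg adjustment over all genes tested. CD8 reads were recovered as RPKM times the gene length implied by the CD4 table, with the smallest step of a library taken as 1 read. All 134905 values above 0 with such a length came out whole within 0.01 reads. Since the step was set within each library, whole values do not show that it was 1 read. Left out were 1571 genes above 0 in CD8 cells that had no length. The recovered reads were tested with edgeR and DESeq2 1.42.0. On these reads edgeR called 40 genes higher and 51 lower in Vav1CreTet2KO cells, and 36 and 28 in Cd4CreTet2KO cells. Other alternatives changed the pseudocount, the filter, the scaling and the libraries. Scripts were tested on simulated data. Intervals and p-values cover the spread between the animals sampled.

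Named were the 10 chaperones, Tet2, Tox, Pdcd1 and the 5 genes of most similar profile. Of each list, called genes (up to 4) or otherwise its gene of smallest p were named. Jun was chosen after its values were seen, and Fos is given for likeness only. Cd3e, Cd3d, Cd3g, Cd8b1 and Cd4 are given beside the named genes of their lists. Motifs were searched in RefSeq promoter windows. The chaperones and the gene lists were chosen with earlier results of these data known.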

Additional observations from a re-analysis of the deposited data

How the results depend on the processing

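Directions against Tet2fl/fl were stable for Hspa1a, Hspa1b, Hspa8, Hsph1, Dnajb1, Hsp90aa1, Hsp90ab1 and Hspd1 under every alternative run, while calls were not. The number of chaperones called in CD8 Vav1CreTet2KO cells against Tet2fl/fl, 2 in the main analysis, was 0 with no filter, 0 by edgeR and 1 by DESeq2 on recovered reads (Hsph1; Hspa1a and Hspa1b got no adjusted p), 0 when only these 2 groups were fitted, and 0 to 3 when 1 library was left out. In CD8 Cd4CreTet2KO cells, 1 in the main analysis, it was 0 with a pseudocount of 0.1, 0 with no filter, 4 with only these 2 groups, 0 without both libraries rich in macrophage transcripts, 0 with the replicate block, and 0 to 1 when 1 library was left out. In CD4 cells, 0 in the main analysis, it was 3 with no filter and 1 by DESeq2 (Dnajb1) in Vav1CreTet2KO cells, with 0 to 3 when 1 library was left out, and 4 with no filter, 1 by DESeq2 (Hspa8) and 3 with only these 2 groups in Cd4CreTet2KO cells. Between the knockouts in CD4 cells it was 1 with no filter (Dnaja1) and 0 to 3 when 1 library was left out, and in CD8 cells 0 throughout. The cause of these changes was not tested. Most of these settings are given without the share of all genes called in them, so a larger count need not be particular to the chaperones. Counts over all genes for some of the settings follow below. Replicate numbers did not pair the samples (correlations of deviations between same-numbered libraries -0.08 to 0.07 in CD8 cells and -0.09 to 0.10 in CD4 cells), and the replicate block gave 2 chaperones in CD8 Vav1CreTet2KO cells and 0 in all other comparisons. The count of relations to Tox or Pdcd1 with an adjusted p under 0.05 was 0 throughout, but 1 relation alone could not go below an adjusted p of 0.139 in CD8 cells with 1 library left out or 0.185 in CD4 cells with all libraries, so these counts say nothing about stability.

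Counts over all genes moved too. In CD8 cells the main analysis called 46 genes higher and 103 lower in Vav1CreTet2KO cells and 8 and 50 in Cd4CreTet2KO cells, against 495 and 435, and 393 and 201, by DESeq2 on recovered reads, and 0 and 20, and 0 and 8, with no filter. In CD4 cells the main analysis called 1 and 0, and 1 and 3, against 328 and 249, and 21 and 15, by DESeq2. The median over all genes in CD8 Cd4CreTet2KO cells moved to 0.00 with size factors, against -0.15, and the chaperone median to -0.73, against -0.92.

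Some log2 changes turned sign. Against Tet2fl/fl, Dnaja1 in CD8 Cd4CreTet2KO cells was 0.0341 without both libraries rich in macrophage transcripts, Dnaja1 in CD8 Vav1CreTet2KO cells was -0.0624 to 1.34 when 1 library was left out, and Hspe1 there was 0.0721 with size factors, 0.27 by edgeR, 0.29 by DESeq2 and -0.59 to 0.35 when 1 library was left out. Between Vav1CreTet2KO and Cd4CreTet2KO in CD8 cells, Dnajb1 was -0.0143 with size factors, -0.12 without both libraries rich in macrophage transcripts and -0.18 to 0.35 when 1 was left out. Without both such libraries Hsp90aa1 was -0.0389 and Hsp90ab1 -0.00891, and Hspd1 was -0.0237 by edgeR. With 1 library left out Hsp90aa1 was -0.00392 to 0.55 and Hspd1 -0.0311 to 0.36. Between the knockouts in CD4 cells, Dnajb1 was -0.48 by limma and -0.14 with the replicate block. With 1 library left out there, Hspa1a was -2.35 to 0.21, Hspa1b -2.14 to 0.10, Hsph1 -0.33 to 0.40, Dnajb1 -0.86 to 0.57 and Hsp90aa1 -0.32 to 0.0876.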
